A study of Homo sapiens with 8 samples.

Results

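The glucose-sensing factors MLXIP, MLXIPL and MLX and the alpha-arrestins TXNIP, ARRDC1, ARRDC2, ARRDC3 and ARRDC4 were examined in MDA-MB-157 cells, an established human breast cancer line without the estrogen receptor. The 8 genes were chosen by symbol, from family membership, but with earlier results of these data known. All 8 were among the 21059 genes of the expression table. Cells were first conditioned in low-glucose medium and then held for 48 hours without serum at 5 mM glucose (low glucose, 4 libraries) or at 25 mM glucose (high glucose, 4 libraries), and the comparison asks how transcripts respond to a glucose level used to model hyperglycemia. No osmotic control is among the 8 libraries, and separate experiments behind the replicates are not described, so p-values measure the spread between these libraries, which may be technical. The table gives read counts relative to library size (CPM), to which the authors applied TMM scaling (trimmed mean of M values), and each error is an SD over n = 4 libraries. Changes are on the log2(CPM + 1) scale, high against low glucose, with a standard error (SE) and an adjusted p from limma over all genes.

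MLXIP, also called MondoA, and MLXIPL, also called ChREBP, are basic helix-loop-helix leucine zipper transcription factors that respond to phosphorylated glucose. Each binds DNA together with its partner MLX, at elements made of a pair of E box-like sequences, and TXNIP and ARRDC4 are among the best known MondoA targets. TXNIP binds thioredoxin and lowers glucose uptake by the transporter encoded by SLC2A1. Alpha-arrestins as a family are known to link membrane proteins to ubiquitin ligases of the NEDD4 family.

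Among these genes, 3 rose at high glucose (ARRDC4, ARRDC2 and MLXIP), 2 fell (MLXIPL and ARRDC3) and 3 did not pass an adjusted p of 0.05 (TXNIP, ARRDC1 and MLX). Over all genes, 22.0% passed in the higher and 24.8% in the lower direction. Of the genes with a mean of at least 1 CPM, a level that all 8 reached, 62.1% passed in either direction, so the 5 of 8 here are close to the background. The median log2 change of the 8 was -0.10, against -0.04 over all genes of at least 1 CPM, whose median absolute change was 0.36. In 4 of the 8 genes (ARRDC2, ARRDC4, MLXIP and MLXIPL) no low glucose library reached into the range of the high glucose libraries, which held for 60.0% of genes of at least 1 CPM.

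**Figure D1:**
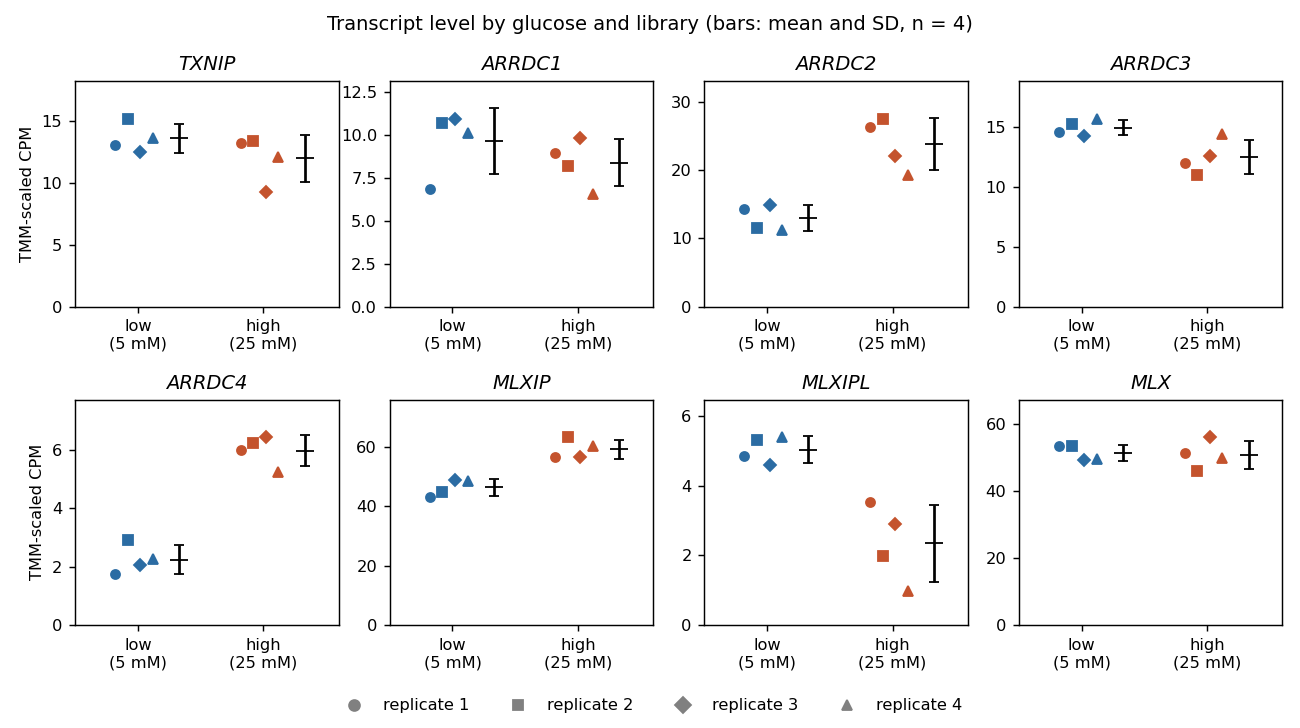
Transcript level (TMM-scaled CPM, axes from 0) of the 8 genes in each of the 4 low glucose (blue) and 4 high glucose (red) libraries. Bars give the mean and SD, and the groups lie apart for ARRDC2, ARRDC4, MLXIP and MLXIPL.

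The libraries held an estimated 9721650 to 12482500 reads in the table, and 3 reads, taken as the floor, were worth 0.212 to 0.267 CPM. High glucose replicate 1 stood apart from its group along transcript length. Its difference from the other 3 had a Spearman correlation with length of -0.65 across 11243 genes. This correlation was 0.25 to 0.47 in the other high glucose libraries and -0.13 to 0.06 at low glucose. Each library was compared with the mean of the other 3 in its group. The values of the other high glucose libraries thus also depend on replicate 1. Without high glucose replicate 1, all calls among the 8 genes were kept except that of ARRDC3. ESR1, the estrogen receptor gene, was at 0.121 ± 0.0811 and 0.0598 ± 0.0406 CPM in low and high glucose. Of the other receptor markers, PGR was at 4.76 ± 0.360 and 5.35 ± 0.597 CPM and did not pass. ERBB2 fell from 63.6 ± 1.29 to 39.2 ± 2.58 CPM (log2 change -0.69). Of 8 markers of epithelial and mesenchymal tumor cells, 2 rose (CDH2 and EPCAM), 4 fell (KRT8, KRT18, VIM and FN1) and 2 did not pass (CDH1 and KRT19, the latter at 0.0182 and 0.0405 CPM). VIM and FN1, of mesenchymal cells, were at 4091 ± 28.5 and 3612 ± 43.96 CPM at low glucose, and CDH1, of epithelial cells, at 0.949 ± 0.204 CPM. The leukocyte marker PTPRC was at 0.0997 ± 0.0758 and 0.123 ± 0.0539 CPM. Of the leukocyte markers in the table, 1 of 3 passed (CD14), and their sum spanned 10.7 to 14.3 CPM at low and 13.3 to 17.97 at high glucose, most of it CD68. Of the endothelial markers, 3 of 3 passed (PECAM1 higher, VWF and CDH5 lower), with a sum of 2.46 to 3.13 and 1.75 to 2.84 CPM. All 8 libraries are of 1 cell line, so the leukocyte and endothelial markers are not a measure of such cells here. The part of the markers in the results was not tested. In such bulk libraries fewer expressing cells and less RNA per cell cannot be told apart.

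The sequence before the transcription start is shown for TXNIP and ARRDC4, since both are known targets of the sensor and their transcripts moved differently, and for MLX, the partner itself. Each line holds the 250 bases before the start, 5′ to 3′ in the direction of the gene, from RefSeq (GRCh38.p14). These are chr1:145996580-145996829 on the minus strand for TXNIP, the first of its 2 listed starts, chr15:97960453-97960702 on the plus strand for ARRDC4 and chr17:42566850-42567099 on the plus strand for MLX. Capitals mark a pair of CACGNG boxes with 5 bases between them, the E box CACGTG, and CCAAT or its reverse complement ATTGG.
TXNIP: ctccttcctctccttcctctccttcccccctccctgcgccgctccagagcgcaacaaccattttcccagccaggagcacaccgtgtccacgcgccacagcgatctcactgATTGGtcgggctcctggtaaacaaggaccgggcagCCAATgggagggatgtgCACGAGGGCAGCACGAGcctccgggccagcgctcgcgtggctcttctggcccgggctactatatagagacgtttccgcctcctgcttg
ARRDC4: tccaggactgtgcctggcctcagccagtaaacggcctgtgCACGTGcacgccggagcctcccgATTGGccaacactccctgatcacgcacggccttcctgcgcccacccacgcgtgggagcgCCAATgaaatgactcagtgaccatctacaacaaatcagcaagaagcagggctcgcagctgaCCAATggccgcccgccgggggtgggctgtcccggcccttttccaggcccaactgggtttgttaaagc
MLX: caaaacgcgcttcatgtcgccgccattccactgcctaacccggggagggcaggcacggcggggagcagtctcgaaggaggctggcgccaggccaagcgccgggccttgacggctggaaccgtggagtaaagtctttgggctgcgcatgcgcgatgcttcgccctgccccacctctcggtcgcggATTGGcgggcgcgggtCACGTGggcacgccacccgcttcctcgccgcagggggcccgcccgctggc

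The motifs were searched on both strands of windows from 250 bases before to 50 after each start. The TXNIP window held 1 pair of CACGNG boxes, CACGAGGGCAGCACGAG, which begins 88 bases before the start and does not overlap the CCAAT boxes at 140 and 105 bases. Such a pair was in 20 of 35116 windows (0.057%) and in no other window of the 8 genes. Both boxes had to read CACGNG on the same strand, and pairs with 1 box only on the opposite strand were not searched. CACGTG was in 7.26% of windows, among them those of ARRDC4, 210 bases before the start, and of MLX, 50 bases before it. The ARRDC4 window held 3 CCAAT boxes, at 187, 128 and 67 bases, and 3 or more were in 3.26% of all windows, against 34.6% with at least 1. ARRDC1, MLXIP, MLX and 1 of 2 windows each of ARRDC2 and ARRDC3 had 1 CCAAT box. The 1 MLXIPL window had no match to any of the 3 motifs. It lay at chr7:73624473-73624772 on the minus strand, inside the gene, whose upstream end is at 73647907. The sequence before that upstream end was not searched. A match is a run of letters and not a measured site, and a missing match says only that these letters are not in the window.

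Among the sensor genes, MLXIP was the one that rose. MLXIP (ENSG00000175727.14, chromosome 12, 122078756 to 122147344, GRCh38.p14), the MondoA gene, was at 43.1, 44.9, 48.8 and 48.6 CPM in low glucose replicates 1 to 4 and at 56.4, 63.2, 56.7 and 60.2 CPM in high glucose replicates 1 to 4. Every high glucose library was above every low glucose library. The mean went from 46.4 ± 2.83 to 59.1 ± 3.23 CPM, a 1.28-fold rise and a log2 change of 0.34 (SE 0.05, 95% interval 0.22 to 0.47, adjusted p = 0.00174, limma). The 517 to 799 reads behind each value would by counting alone give SDs of 1.94 and 2.18 CPM at low and high glucose. The SDs seen, 2.83 and 3.23 CPM, were above these.

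MLXIPL moved the other way. MLXIPL (ENSG00000009950.16, chromosome 7, 73593202 to 73647907), which encodes ChREBP, the paralog best known from liver and fat, was at 4.83, 5.30, 4.59 and 5.39 CPM at low glucose, and at 3.53, 1.99, 2.89 and 0.978 CPM at high glucose. All 4 high glucose libraries were below the lowest low glucose library, and they varied among themselves from 11 to 50 reads. The mean fell from 5.03 ± 0.382 to 2.35 ± 1.11 CPM, a log2 change of -0.91 (SE 0.25, 95% interval -1.50 to -0.32, adjusted p = 0.0202, limma). Counting alone would give an SD of 0.428 CPM at high glucose, below the 1.11 CPM observed. The adjusted p was above 0.05 without low glucose replicate 2 (0.0513), low glucose replicate 4 (0.0523) or high glucose replicate 2 (0.0522).

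MLX (ENSG00000108788.11, chromosome 17, 42567100 to 42573203), the shared partner of both sensors, had the highest level of the 8 per kilobase (kb) of transcript. It was at 53.4, 53.3, 49.1 and 49.6 CPM in the low glucose libraries and at 51.4, 45.9, 56.0 and 49.7 CPM in the high glucose libraries. The groups overlapped, and the highest and the lowest value were both at high glucose. The mean was 51.4 ± 2.32 against 50.8 ± 4.23 CPM, with a log2 change of -0.02 and a 95% interval of -0.17 to 0.13 (adjusted p = 0.859, limma). Its exons overlap those of PSMC3IP on the opposite strand, a gene that rose from 5.35 ± 0.852 to 13.96 ± 1.11 CPM, and whether reads were assigned by strand is not stated. The values of MLX corresponded to fractional reads (559.1 to 728.83), while those of the other 7 genes were whole reads to within 0.01.

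The difference between MLXIP and MLX was examined within each library. On the log2 scale MLXIP minus MLX was -0.30, -0.24, -0.01 and -0.03 at low glucose and 0.13, 0.45, 0.02 and 0.27 at high glucose. All low glucose values were below 0 and all high glucose values above it, although low glucose replicate 3 and high glucose replicate 3 lay close together. The mean went from -0.15 ± 0.15 to 0.22 ± 0.19, a difference of 0.36 (exact 2-sided permutation test over 70 assignments, p = 0.0286, which is also the smallest it can give, and 0.0286 adjusted over 2 such tests). With each library's trend along transcript length removed, the difference was 0.31 and the exact permutation p 0.0857. The adjusted exact p was 0.0571, and the call lost, without any 1 of the low glucose libraries or high glucose replicate 2.

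Per kb of transcript, MLX made up 75.5% ± 1.70 of the summed level of the 3 sensor genes at low and 73.5% ± 2.15 at high glucose. MLXIP went from 19.1% ± 1.59 to 24.1% ± 2.58 of that sum and MLXIPL from 5.37% ± 0.376 to 2.44% ± 1.10. The ratio of MLXIP to MLXIPL per kb was 3.27 to 4.11 in the low glucose libraries and 6.17 to 23.8 in the high glucose libraries, with the highest ratio resting on the 11 reads of MLXIPL in high glucose replicate 4. MLXIP was thus the more abundant of the paralogs in all 8 libraries.

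Of the alpha-arrestins, ARRDC4 had the largest fold change. ARRDC4 (ENSG00000140450.9, chromosome 15, 97960703 to 97973833), the closest paralog of TXNIP and likewise an inhibitor of glucose uptake, was at 1.75, 2.90, 2.04 and 2.26 CPM at low glucose and at 6.0, 6.22, 6.43 and 5.24 CPM at high glucose. The groups did not overlap, with 21 to 35 reads per low glucose library and 59 to 85 per high glucose library. The mean rose 2.67-fold, from 2.24 ± 0.488 to 5.97 ± 0.518 CPM, with a log2 change of 1.12 (SE 0.12, 95% interval 0.83 to 1.40, adjusted p = 2.6e-04, limma). Counting alone would give SDs of 0.425 and 0.692 CPM, about as large as the spread seen.

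TXNIP did not pass the test. TXNIP (ENSG00000265972.5, chromosome 1, 145992435 to 145996579), the thioredoxin-interacting arrestin, was at 13.0, 15.2, 12.5 and 13.6 CPM at low glucose, and its values at high glucose were 13.2, 13.3, 9.24 and 12.1 CPM. High glucose replicates 1 and 2 lay inside the low glucose range, replicate 4 just below it and replicate 3, at 112 reads, well below it. The means were 13.6 ± 1.16 and 11.96 ± 1.90 CPM, a log2 change of -0.18 whose 95% interval ran from -0.46 to 0.10 (adjusted p = 0.275, limma). The upper end of that interval is below the lower end of the interval of ARRDC4. Without high glucose replicate 3 the log2 change of TXNIP was -0.07.

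The difference between the changes of both targets was tested on ARRDC4 minus TXNIP within each library. This log2 difference was -2.35, -2.05, -2.15 and -2.17 at low glucose and -1.02, -0.99, -0.46 and -1.07 at high glucose. The groups did not overlap, and ARRDC4 stayed below TXNIP in each of the 8 libraries. The mean went from -2.18 ± 0.12 to -0.88 ± 0.28, a difference of 1.29 (exact 2-sided permutation p = 0.0286, the smallest possible, and 0.0286 adjusted over 2 tests). In the same 5 cases as for MLXIP and MLX, and with the length trend removed, the adjusted exact p was 0.0571, with differences of 1.24 to 1.34. The unadjusted exact p stayed at 0.0286 in these cases. Per kb of transcript, TXNIP was 7.34 to 10.4 times as abundant as ARRDC4 at low glucose and 2.01 to 3.23 times at high glucose.

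**Figure D2:**
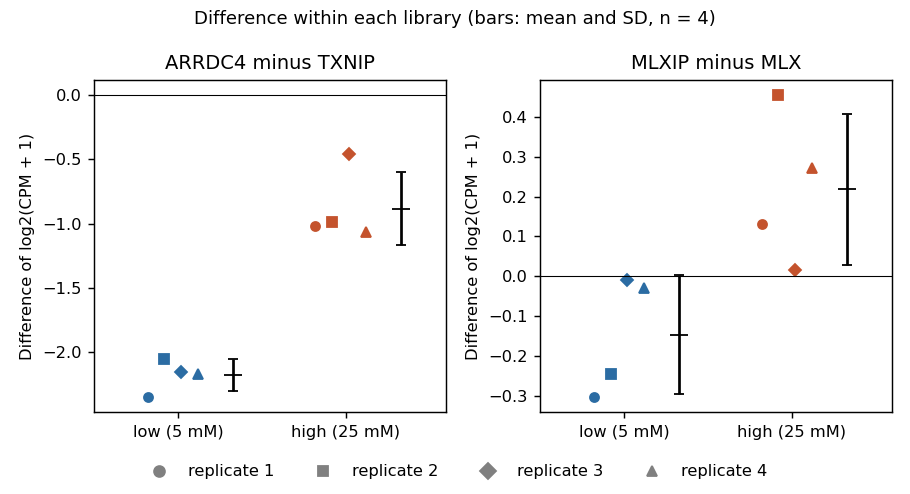
Difference of log2(CPM + 1) between a pair of genes within each library, for ARRDC4 minus TXNIP and for MLXIP minus MLX, at low (blue) and high (red) glucose, with the mean and SD of n = 4 and a line at 0. In both pairs the high glucose libraries lie above the low glucose libraries, and high glucose replicate 3 is the highest for ARRDC4 minus TXNIP, at -0.46.

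ARRDC2 also rose. ARRDC2 (ENSG00000105643.10, chromosome 19, 18001124 to 18014102), an alpha-arrestin studied less than its relatives, was at 14.3, 11.5, 14.9 and 11.2 CPM at low glucose and at 26.4, 27.6, 22.1 and 19.4 CPM at high glucose. The lowest high glucose library, replicate 4, was above the highest low glucose library, replicate 3. The mean went from 13.0 ± 1.91 to 23.9 ± 3.81 CPM, a 1.84-fold rise and a log2 change of 0.83 (SE 0.14, 95% interval 0.49 to 1.16, adjusted p = 0.00238, limma). An unnamed gene, ENSG00000279172, overlaps its exons on the opposite strand. Neither of its 2 promoter windows held CACGTG or the pair of boxes.

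ARRDC3 fell slightly. ARRDC3 (ENSG00000113369.9, chromosome 5, 91368631 to 91383317), an adaptor in the trafficking of adrenergic receptors and integrins, was at 14.6, 15.2, 14.2 and 15.7 CPM at low glucose and at 12.0, 11.0, 12.5 and 14.4 CPM at high glucose. The values of high glucose replicates 1 to 3 were below the low glucose range, and replicate 4 was inside it. The mean fell from 14.9 ± 0.659 to 12.5 ± 1.43 CPM, a log2 change of -0.24 (SE 0.08, 95% interval -0.43 to -0.06, adjusted p = 0.0390, limma). This call was lost in 10 of 15 other settings, where the adjusted p reached up to 0.163, and among them were 7 of the 8 in which 1 library was left out.

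ARRDC1 (ENSG00000197070.14, chromosome 9, 137605686 to 137615360), which drives the budding of vesicles from the plasma membrane, was at 6.83, 10.7, 11.0 and 10.1 CPM at low glucose and at 8.96, 8.21, 9.82 and 6.58 CPM at high glucose. The groups overlapped, with the lowest low glucose value in replicate 1 and the lowest high glucose value in replicate 4. The means were 9.65 ± 1.91 and 8.39 ± 1.38 CPM, a log2 change of -0.17 with a 95% interval of -0.58 to 0.23 (adjusted p = 0.449, limma). Without low glucose replicate 1 it was -0.31, without high glucose replicate 4 -0.07 and with quantile scaling -0.05, none past the threshold. Its exons overlap ARRDC1-AS1 on the opposite strand, which fell from 9.896 ± 1.11 to 7.33 ± 0.953 CPM, and ENSG00000283411 on the same strand, and 8.06% of its 31-base words occur in other genes, so reads of these genes may be shared.

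**Figure D3:**
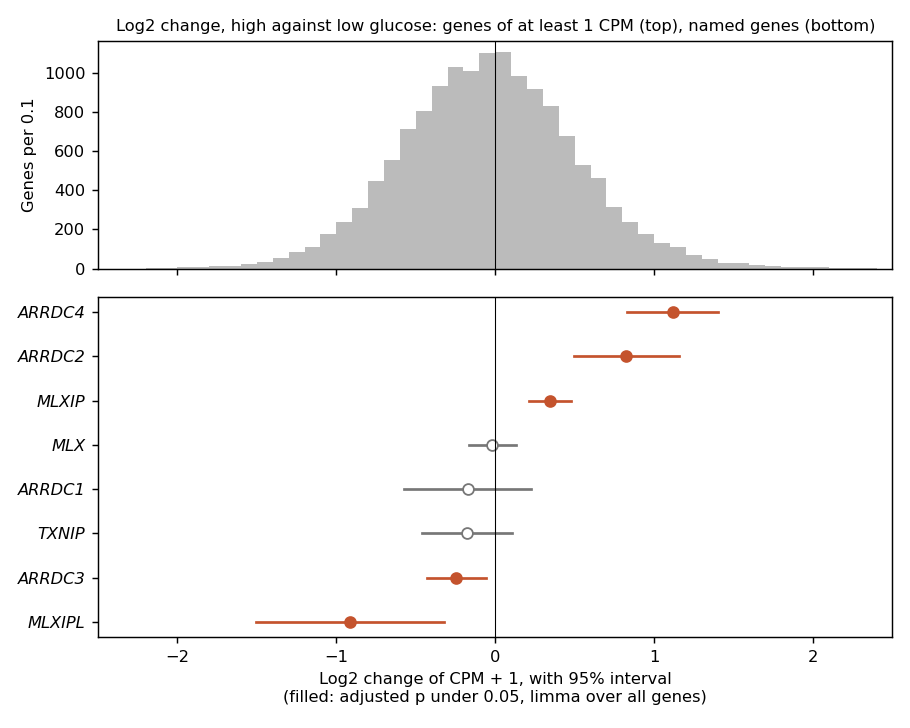
Top, the number of genes per 0.1 of log2 change, high against low glucose, for the genes with a mean of at least 1 CPM. Bottom, the log2 change of CPM + 1 of each of the 8 genes with its 95% interval, filled where the adjusted p (limma over all genes) was under 0.05. ARRDC4 and MLXIPL lie toward opposite sides of the distribution and TXNIP, ARRDC1 and MLX near its center.

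The make-up of the arrestin family was described by the share of each gene in the summed level. Per kb, the 5 alpha-arrestins together were at 20.2 ± 1.24 CPM with 5 mM glucose and at 23.5 ± 2.05 CPM with 25 mM, and the groups overlapped. ARRDC2 went from 25.9% ± 4.44 to 40.4% ± 3.12 of that sum and ARRDC4 from 2.72% ± 0.495 to 6.27% ± 0.454. TXNIP went from 23.3% ± 2.02 to 17.6% ± 2.59, ARRDC1 from 30.6% ± 4.55 to 22.95% ± 3.26 and ARRDC3 from 17.5% ± 1.33 to 12.7% ± 2.62. Shares add up to the whole, so a rise of 1 gene lowers the others.

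Ordered by level per kb at low glucose, MLX (21.8 ± 0.981 CPM per kb) came first, followed by ARRDC1 (6.20 ± 1.23), MLXIP (5.50 ± 0.335), ARRDC2 (5.20 ± 0.765), TXNIP (4.69 ± 0.400), ARRDC3 (3.52 ± 0.155), MLXIPL (1.55 ± 0.117) and ARRDC4 (0.551 ± 0.120). From ARRDC1 to TXNIP each gene overlapped the next in that order. At high glucose ARRDC2 stood second (9.54 ± 1.52 CPM per kb), after MLX (21.5 ± 1.79) and ahead of MLXIP (7.01 ± 0.383) without overlap. ARRDC1 (5.39 ± 0.884) overlapped TXNIP (4.13 ± 0.655), which overlapped ARRDC3 (2.94 ± 0.336). ARRDC4 (1.47 ± 0.127) and MLXIPL (0.722 ± 0.341) had exchanged the last places.

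Targets of MondoA and ChREBP outside the arrestins went both ways. Of 26 such genes 21 were in the table, where 6 rose, 7 fell and 8 did not pass, with FGF21 listed at 0 in every library. The median log2 change of the 16 with at least 1 CPM was -0.20, against -0.04 over all genes of that level. HK2, hexokinase 2, which makes the glucose phosphate that the sensors respond to, rose from 34.8 ± 0.867 to 72.4 ± 1.93 CPM (log2 change 1.03). BHLHE40, a transcriptional repressor tied to the circadian clock, rose from 78.7 ± 2.03 to 129 ± 4.12 CPM (0.71). SCD, the stearoyl-CoA desaturase of fatty acid synthesis, fell from 1973 ± 17.0 to 855 ± 41.4 CPM (-1.21).

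The remaining genes of that list that passed are named after their values were seen. Those that rose were LDHA (lactate dehydrogenase A, log2 change 0.77), PFKFB3 (an activator of glycolysis, 0.53) and the Kruppel-like factors KLF10 (0.87) and KLF11 (0.30). Those that fell were ACLY (-0.55), ACACA (-0.58), FASN (-0.62) and ME1 (-0.32), which supply or carry out fatty acid synthesis, the transketolase gene TKT (-0.52) and the lipid droplet gene PNPLA3 (-1.03). ELOVL6 (-0.08) and ACACB (-0.36), which also belong to fatty acid metabolism, did not pass.

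Among other partners, 4 genes were examined, MAX and the 3 repressors MXD1, MXD4 and MNT that bind MLX or MAX. MXD1 rose from 16.8 ± 1.09 to 46.3 ± 4.46 CPM (log2 change 1.41) and MAX, the central partner of the MYC network, from 57.5 ± 1.57 to 90.1 ± 4.38 CPM (0.64). MXD4 fell from 34.6 ± 3.63 to 21.9 ± 0.909 CPM (-0.63), and MNT did not pass, at 30.6 ± 2.06 and 29.2 ± 1.75 CPM.

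Of the 9 NEDD4 family ligases, which alpha-arrestins recruit, 4 rose, 2 fell and 3 did not pass. NEDD4L, a regulator of epithelial ion channels, rose from 3.99 ± 0.123 to 11.1 ± 0.512 CPM (log2 change 1.28) and SMURF1, which acts on TGF-beta signaling, from 71.6 ± 2.77 to 97.6 ± 8.98 CPM (0.44). HECW2 fell from 26.7 ± 1.42 to 13.0 ± 2.85 CPM (-1.0). The median log2 change of the list was -0.0027.

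Among 9 genes of the thioredoxin system and of TXNIP's partners, 2 rose, 4 fell and 3 did not pass, and the median log2 change of the 8 with at least 1 CPM was -0.27. SLC2A1, which encodes the glucose transporter GLUT1, rose from 117 ± 5.13 to 197.5 ± 18.1 CPM (log2 change 0.75). DDIT4, a stress-induced inhibitor of mTORC1 that forms a complex with TXNIP, fell from 118 ± 6.04 to 49.1 ± 4.74 CPM (-1.25). TXNRD3, a thioredoxin reductase, fell from 13.5 ± 0.518 to 6.72 ± 0.739 CPM (-0.92).

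Of 8 other genes with an arrestin fold, 5 were in the table, and 2 rose, 1 fell and 2 did not pass. VPS26C, a subunit of the retriever complex that recycles membrane proteins, rose from 88.9 ± 2.51 to 167 ± 2.71 CPM (log2 change 0.90). VPS26A, of the retromer complex, rose from 76.6 ± 4.37 to 93.2 ± 4.31 CPM (0.28) and its paralog VPS26B fell from 56.7 ± 1.94 to 46.9 ± 4.95 CPM (-0.27). The beta-arrestins ARRB1 and ARRB2 did not pass, with log2 changes of 0.01 and -0.06. Of the list genes with at least 1 CPM, 13 of 16 sensor targets, 3 of 4 partners, 6 of 9 ligases, 6 of 8 genes of the thioredoxin list and 3 of 5 arrestin-fold genes passed, beside 62.1% of all genes of that level.

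**Figure D4:**
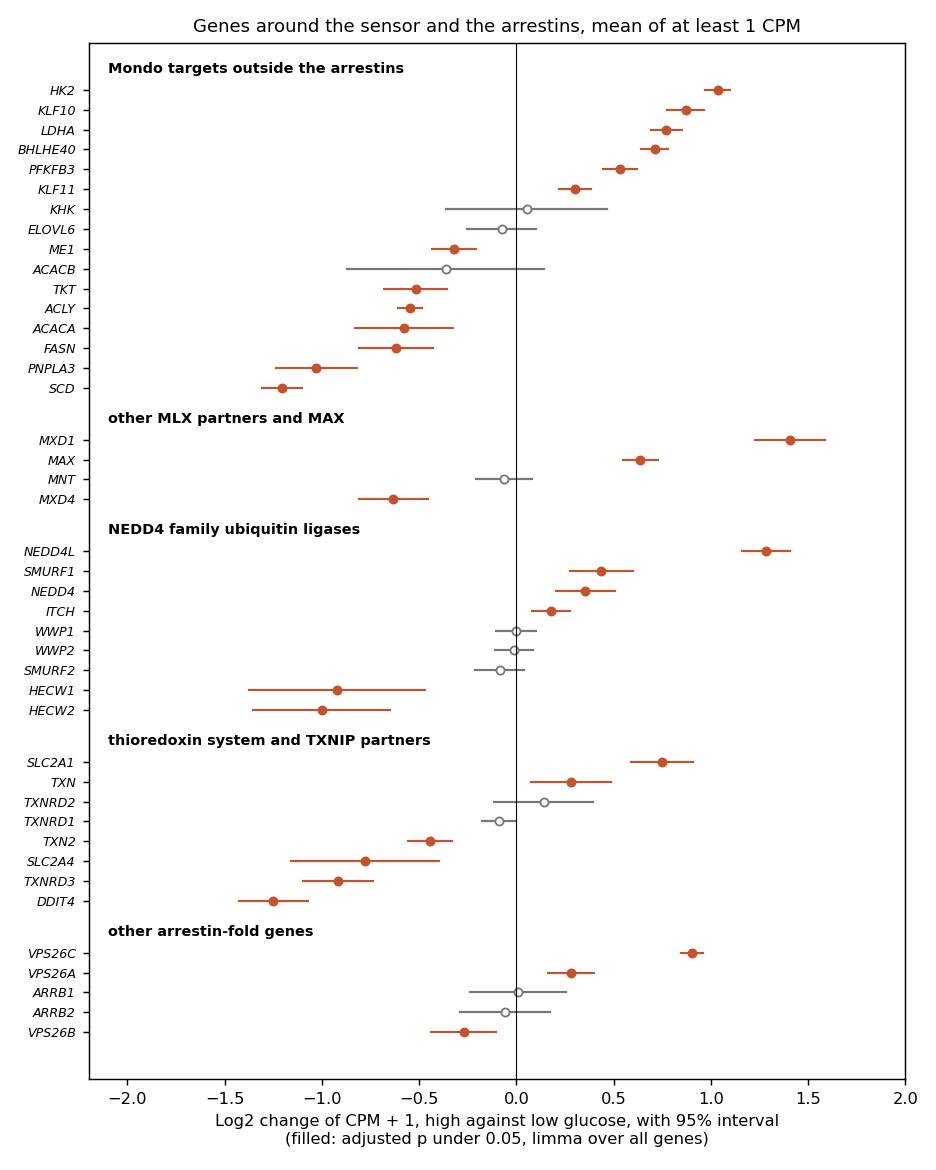
Log2 change of CPM + 1, high against low glucose, with its 95% interval for the genes of the 5 lists that had a mean of at least 1 CPM, filled where the adjusted p (limma over all genes) was under 0.05. Each list holds genes on both sides of 0, from MXD1 (1.41) to DDIT4 (-1.25).

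Genes with a pattern most like that of 4 of the genes were looked up among 11291 genes with a mean of at least 5 CPM, by Pearson correlation of log2(CPM + 1) over the 8 libraries, as a description. Since the libraries form 2 groups, a gene that changed with glucose resembles every other that did. ARRDC4 was most like SLC9A3, a sodium-proton exchanger (10.4 ± 1.64 and 24.7 ± 1.61 CPM), BAG6 and ECE1, with r = 0.995, 0.995 and 0.994. MLXIP was most like ARHGAP17 and ZC3H18, both at r = 0.99, and URB2 (0.98). The nearest genes to ARRDC3 were TAF9B (0.99), UBE2J1 (0.98) and RDH14 (0.97). TXNIP was most like ZFP1 (0.97), the pseudogene RPL32P3 (0.95) and PPIL1 (0.92), and none of these 3 passed between the glucose levels.

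**Figure D5:**
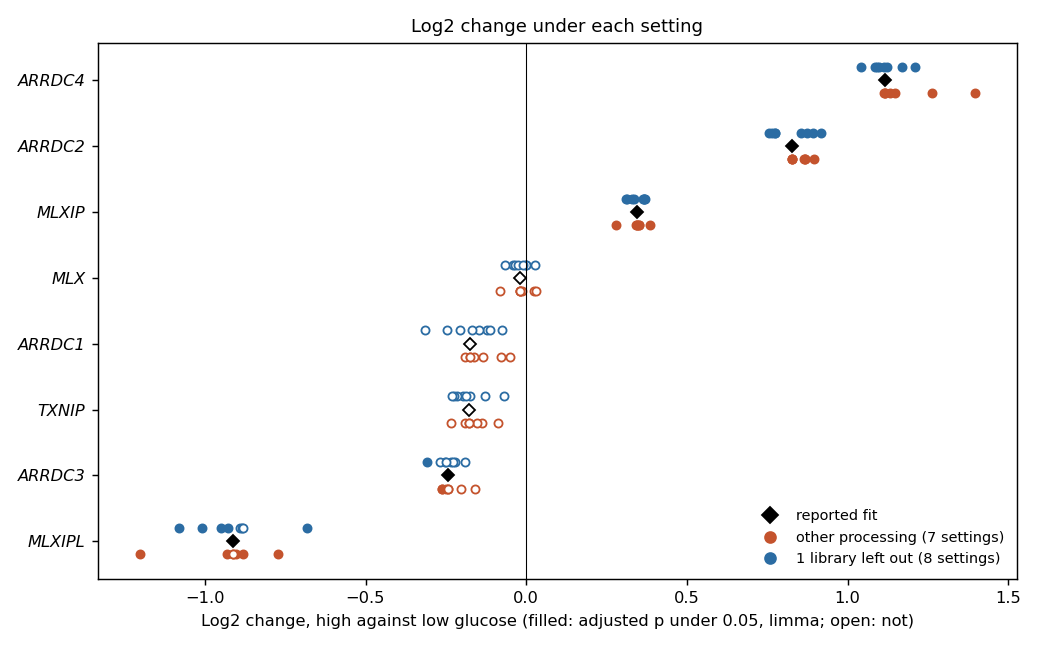
Log2 change of each of the 8 genes, high against low glucose, in the reported fit (black diamonds), under 7 other ways of processing (red) and with each of the 8 libraries left out (blue), filled where the adjusted p (limma) was under 0.05. ARRDC4, ARRDC2 and MLXIP stay filled throughout, while ARRDC3 is mostly open.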

How the data were processed

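The authors extracted RNA with RNeasy Plus Mini kits, sequenced on an Illumina HiSeq and deposited 1 table of CPM, scaled with TMM factors. The submitters' processing notes name edgeR and hg38, while the study's methods for tumors name TopHat and hg19; the counter and its use of strand are not given in the sources used here. Of 21077 rows, 18 pseudoautosomal Y copies with values equal to the X copy were left out. Reads were estimated by taking the most frequent of the low positive values of each library as 1 read. Of the values below 200 reads, 72.4% to 73.9% were whole multiples of it (within 0.01), so no count test was run. These depths and the floor of 3 reads cover counting error only.

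All 21059 genes, 856 of them at 0 throughout, were fitted as log2(CPM + 1) with limma 3.58.1 (R 4.3.3, mean-variance trend, 2-sided, no covariate), with Benjamini-Hochberg adjustment over all genes and a threshold of 0.05. Fold changes on this scale understate those of low genes, while folds in the text are ratios of mean CPM. Gene pairs were compared with exact permutation tests. The steps were tested on simulated data. Groups and replicate numbers came from the sample titles and treatments. The members and lists were chosen with earlier results of these data known. All 8 members are named, with at most the 3 genes of smallest adjusted p per list, any list gene at 0, and the 3 genes of closest pattern to TXNIP, ARRDC3, ARRDC4 and MLXIP. Markers, overlapping genes and all other genes are named outside this rule, after their values were seen. The CCAAT search was added after the sequences were seen. Positions and promoters are from RefSeq (GRCh38.p14), where all 8 symbols matched, and transcript lengths from GENCODE 44 mapped to GRCh37 for 20765 genes, with the principal transcript for MLXIP and the canonical one for the other 7. Alternatives were a pseudocount of 0.1, a minimum mean of 1 CPM, median-of-ratios and quantile scaling, removal of the length trend, library weights, a replicate block and leaving out each library. Protein sequences were not analysed here.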

Additional observations from a re-analysis of the deposited data

Results flagged for a closer look

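The largest or smallest value of a group of 4 was called apart when its gap to the nearest other value exceeded the 95% critical value of Dixon's test, and 2 of 76 groups met this, where chance gives 3.8. For ARRDC4 minus TXNIP, high glucose replicate 3 was at -0.46 on the log2 scale, against -1.07 to -0.99 in the other 3 high glucose libraries, and it was the library with the lowest TXNIP (9.24 CPM). The estimated reads of low glucose replicate 4 were 12104200, against 10389700 to 10623000 in the other 3 low glucose libraries.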

How the results depend on the processing

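Results were recomputed under 15 other settings, 8 of which left out 1 library, and the differences of the 2 gene pairs under 13 of these. Genes past the threshold numbered 9849, and 8899 to 10638 in the others. The 3 genes that rose (ARRDC2, ARRDC4 and MLXIP) passed in all 15. The count of those that fell was 2, and was 1 with median-of-ratios or quantile scaling, 0 with the replicate block and 0 to 2 with a library left out. ARRDC3 no longer passed with median-of-ratios (-0.20) or quantile scaling (-0.16) or the block (-0.24), and ran from -0.31 to -0.19 with a library left out, where it passed only without high glucose replicate 4. MLXIPL was at -0.91 with the block (adjusted p = 0.0587, limma) and at -1.08 to -0.68 with a library left out. MLX turned to 0.023 with median-of-ratios scaling and 0.029 with the length trend removed, and ran from -0.067 to 0.027 with a library left out, never past the threshold. ARRDC4 minus TXNIP differed by 1.27 with the length trend removed (adjusted p 0.0571 over the 2 exact tests) and by 1.15 to 1.36 with a library left out, and MLXIP minus MLX by 0.31 (0.0857) and by 0.28 to 0.43. Leaving out any low glucose library or high glucose replicate 2 brought the adjusted exact p of both pairs to 0.0571, above 0.05, while the unadjusted p of ARRDC4 minus TXNIP stayed at 0.0286. With the replicate block, these differences were 1.29 and 0.36 with an exact p of 0.125, the smallest that 4 pairs allow. Same-numbered libraries correlated at -0.04 to 0.07 after group means were removed, against -0.14 to 0.07 for libraries of unlike number. No pairing by number was seen, but 4 such values are too few to exclude it. The counts of the 5 gene lists stayed within 1.5 times in all 15 settings. The causes were not tested.

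The precision is limited by 4 libraries a group and by low reads for ARRDC4 and MLXIPL.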

Other observations

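The pair of CACGNG boxes found before TXNIP was in the promoters of 20 genes, of which 16, TXNIP included, were in the table, all with a mean of at least 1 CPM. With more glucose 5 rose, 8 fell and 3 did not pass an adjusted p of 0.05 (limma over all genes), against 62.1% of genes of that level past the threshold. Among those that rose were P4HA1, a collagen prolyl hydroxylase (97.8 ± 3.13 to 133 ± 4.13 CPM, log2 change 0.45), and GFPT1, which opens the hexosamine pathway (168 ± 5.67 to 190.0 ± 12.7 CPM, 0.17), both named after their values were seen. MYL5, a myosin light chain, fell from 7.56 ± 0.746 to 3.54 ± 0.423 CPM (-0.91), also named after its values were seen.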
